A study of Neurospora crassa with 12 samples.

Results

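The phosphate (Pi) response of the Neurospora crassa strain labelled Δpac-3 was examined in 6 of the 12 RNA-seq libraries of the series, the 3 libraries of conidia germinated in high-Pi (10 mM) against the 3 libraries of conidia germinated in low-Pi (10 µM). The libraries were chosen by their labels alone, and each holds a raw read count for 9730 genes. The Δpac-3 strain carries the bar gene in place of the pac-3 open reading frame (NCU00090) and was built in a mus-52KO background, so that it is 1 mutant strain examined in 1 genetic background. Its conidia came from cultures of 10 days and were germinated with shaking for 5 h at 30 °C. The same sucrose and citrate-buffered medium, at pH 5.4, was used in both Pi conditions. The other 6 libraries come from the control strain labelled Δmus-52, whose conidia came from cultures of 5 days and were germinated in the same high-Pi and low-Pi media, with 3 libraries in each. Libraries of a group are called I, II and III, as labelled. The study's methods call the 3 libraries of a group biological triplicates, and the labels do not say whether each came from a culture of its own, so p-values measure the spread between these libraries. In the Δpac-3 strain, total counts were 28463224, 29254168 and 33141595 in high-Pi libraries I, II and III, against 82211503, 20240314 and 26269512 in low-Pi libraries I, II and III.

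In N. crassa, the response to Pi shortage is known to run through a regulatory chain. The cyclin PREG and its kinase PGOV keep the transcription factor NUC-1 inactive when Pi is plentiful, and NUC-2 relieves this block when Pi is scarce, so that NUC-1 can induce phosphatases and high-affinity Pi permeases. PAC-3 is the zinc finger transcription factor of the PacC family, which is known for its role in the response to ambient pH.

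The deleted genes were read first. The counts at pac-3 (NCU00090) were 129.6, 182 and 153 CPM (a gene's counts relative to the library total, with TMM scaling over the 12 libraries) in the high-Pi libraries I, II and III labelled Δpac-3, against 154, 134 and 157 CPM in their low-Pi libraries. The high-Pi and low-Pi libraries overlapped, and the log2 fold change of high-Pi over low-Pi was 0.06 ± 0.15 (SE). In the libraries labelled Δmus-52, pac-3 had 398, 355 and 452 CPM in high-Pi and 511, 512 and 518 CPM in low-Pi, so reads remained at the pac-3 locus in every Δpac-3 library but at a lower level than in every control library. The gene mus-52 (NCU00077), a Ku80-type gene of non-homologous end joining, had 4, 1 and 36 counts in the Δpac-3 high-Pi libraries and 9, 2 and 0 counts in the low-Pi libraries. The libraries labelled Δmus-52 held 1344, 513 and 831 counts in high-Pi and 970, 567 and 487 counts in low-Pi, which goes against their label. Every strain name below is therefore that of the library labels. Actin (act, NCU04173) had 1422, 1134 and 1198 CPM in high-Pi libraries I to III, against 1214, 1202 and 1157 CPM in the low-Pi libraries, and β-tubulin (Bml, NCU04054) had 827, 639 and 771 CPM in high-Pi libraries I to III, against 736, 704 and 673 CPM in the low-Pi libraries, with overlapping libraries for both.

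No gene passed the thresholds for a Pi response in the Δpac-3 strain. Of 8348 genes tested, 0 (0%) reached both an adjusted p below 0.05 and a log2 fold change of 1.5 or more in either direction in edgeR's quasi-likelihood test, and 0 had an adjusted p below 0.05 at any fold change. The smallest adjusted p was 0.87. At an unadjusted p below 0.05 there were 413 genes (4.95% of those tested), 295 of them higher (3.53%) and 118 lower (1.41%) in high-Pi. The 3 high-Pi libraries lay wholly above or below the 3 low-Pi libraries for 908 genes (10.9%), above for 418 (5.01%) and below for 490 (5.87%). In the control strain the same test on its own 6 libraries called 295 of 8190 genes (3.6%), 10 higher (0.122%) and 285 lower (3.48%) in high-Pi, with 2666 genes at an adjusted p below 0.05 and 48.8% of genes without overlap between its high-Pi and low-Pi libraries. The biological coefficient of variation shared by all genes was 0.208 in the Δpac-3 fit and 0.12 in the Δmus-52 fit, and the median SE of a log2 fold change was 0.18 and 0.12.

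**Figure D1:**
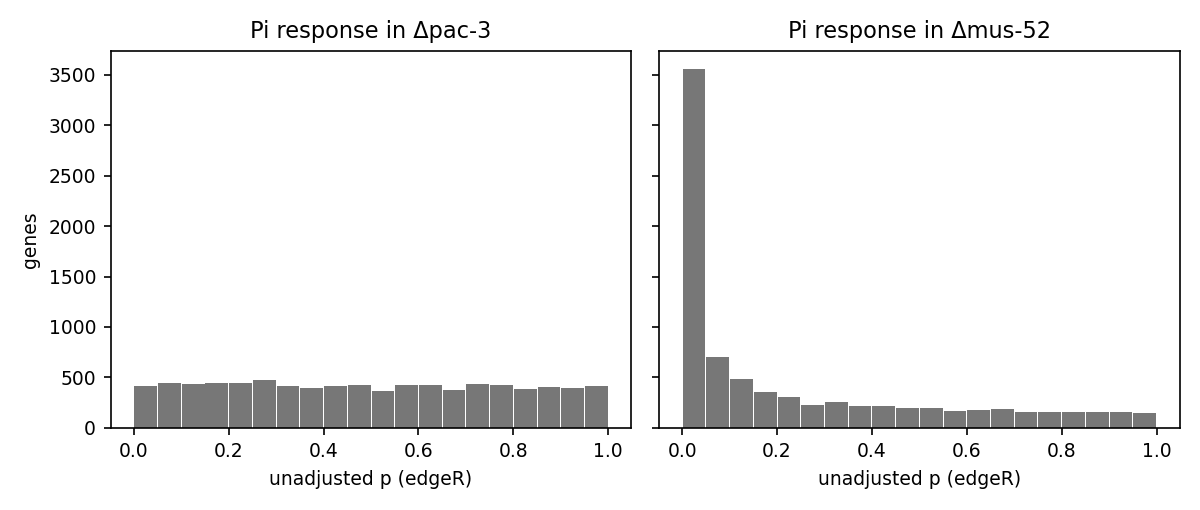
Number of genes (vertical axis) by unadjusted edgeR p-value (horizontal axis, bins of 0.05) for high-Pi against low-Pi, in the 6 Δpac-3 libraries (left, 8348 genes) and the 6 Δmus-52 libraries (right, 8190 genes). The first bin holds 413 genes in Δpac-3 and 3560 genes in Δmus-52.

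Other tools and library sets gave few calls. DESeq2 gave 21 genes an adjusted p below 0.05, all 21 higher in high-Pi and all 21 without overlap, of which 5 reached the fold threshold (NCU00766, NCU06131, NCU07142, NCU09176 and NCU16673). Without high-Pi library III, edgeR gave 31 genes an adjusted p below 0.05, all 31 higher in high-Pi, of which 17 reached the fold threshold. Only 4 genes were shared by the 21 and the 31. The limma-voom fit with library quality weights called 0 genes.

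The genes of Pi acquisition and its control gave 0 of 10 calls. The regulators were near level in the 2 media. The transcription factor gene nuc-1 (NCU09315) had 81.7, 102 and 106 CPM in high-Pi libraries I to III, against 97.9, 118 and 116 CPM in the low-Pi libraries, with a log2 fold change of -0.20 ± 0.15 (SE; edgeR adjusted p = 0.94), and its libraries overlapped. The ankyrin-repeat regulator gene nuc-2 (NCU11426), the cyclin gene preg (NCU01738) and the kinase gene mdk-1 (NCU07580, also called pgov) had log2 fold changes of 0.08, 0.01 and 0.21, with an SE of 0.13 each. All 3 had overlapping libraries and levels between 66.7 and 105 CPM.

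Of the secreted and surface enzymes, pho-2 (NCU01376), the gene of the repressible alkaline phosphatase, had 3.98, 6.10 and 5.36 CPM in high-Pi libraries I to III, against 4.97, 6.90 and 3.92 CPM in the low-Pi libraries. The repressible acid phosphatase gene pho-3 (NCU08643) had 1.04, 1.17 and 1.18 CPM in high-Pi libraries I to III, against 1.83, 0.667 and 0.545 CPM in the low-Pi libraries. In neither were the groups apart, and the log2 fold changes were -0.02 ± 0.27 and 0.08 ± 0.46 (SE). The phytase gene pht-1 (NCU06351), whose product releases Pi from phytate, varied least of the 10 between its highest and lowest library, with 11.1, 10.9 and 11.4 CPM in high-Pi libraries I to III, against 11.6, 10.4 and 11.1 CPM in the low-Pi libraries. The other phytase gene, NCU03255, had 156, 52.2 and 34.3 CPM in high-Pi libraries I to III, against 53.5, 44.5 and 44 CPM in the low-Pi libraries. Its high-Pi level was set by library I, which was the highest of all 6, while library III was the lowest, and the log2 fold change was 0.77 ± 0.49 (SE; edgeR adjusted p = 0.94) with all libraries and -0.12 without high-Pi library I.

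The high-affinity Pi permease gene pho-4 (NCU09564) was the single member of the 10 whose libraries did not overlap, where 10.9% of all genes tested were without overlap. It had 0.816, 1.11 and 2.35 CPM in high-Pi libraries I to III, against 0.242, 0.267 and 0.443 CPM in the low-Pi libraries, from 25, 37 and 82 counts in high-Pi and 20, 6 and 13 counts in low-Pi, so all 3 high-Pi libraries were higher on few counts. Its log2 fold change was 2.21 ± 0.50 (SE), with an unadjusted edgeR p of 0.0025 and an adjusted p of 0.93, and it was not called. In Δmus-52 it had 164, 154 and 259 CPM in high-Pi and 230.4, 267 and 318 CPM in low-Pi, with a log2 fold change of -0.54 (edgeR adjusted p = 0.059). The difference between the Pi responses of the strains was 2.78 on the log2 scale (edgeR adjusted p = 0.0084). The locus of pho-4 overlaps another annotated gene, and since the use of strand in counting is not stated its few counts could include reads of that gene. The other high-affinity Pi permease gene of the list, pho-5 (NCU08325), had 3.79, 1.91 and 3.64 CPM in high-Pi libraries I to III, against 2.42, 1.56 and 1.67 CPM in the low-Pi libraries, with overlap between low-Pi I and high-Pi II. Its log2 fold change was 0.70 ± 0.33 (SE; edgeR adjusted p = 0.93), and in Δmus-52 it had 38.7, 42.6 and 56.1 CPM in high-Pi and 49.3, 55.2 and 81.3 CPM in low-Pi. Over the 10 members the median log2 fold change was 0.08, against 0.0048 over all 8348 genes tested.

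**Figure D2:**
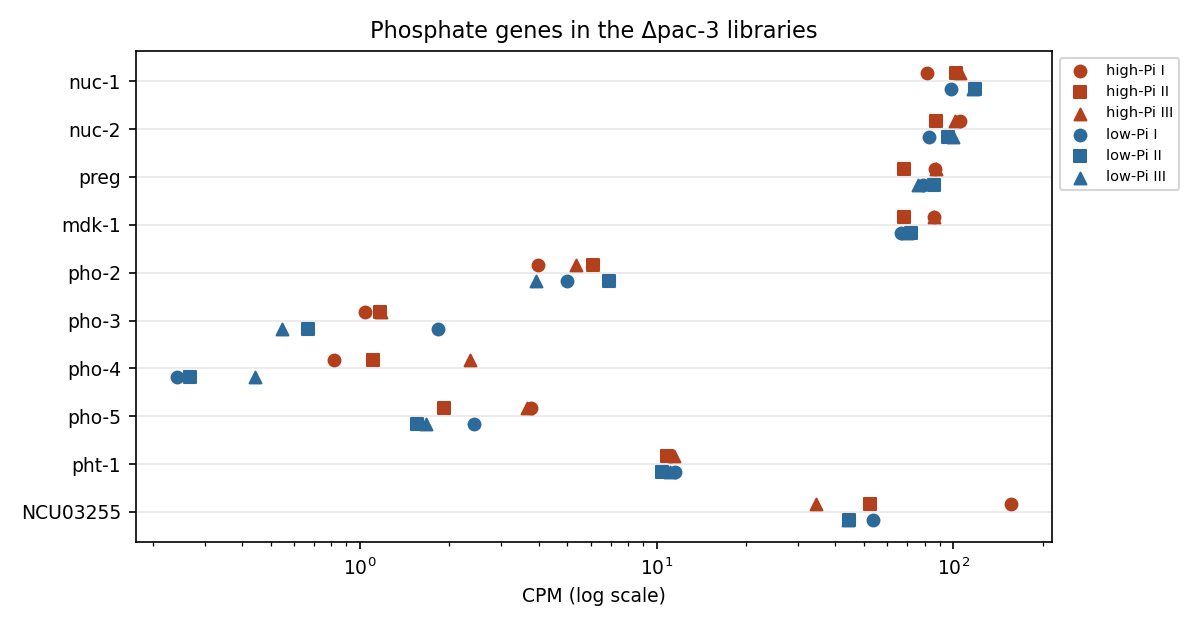
CPM (horizontal axis, log scale) of the 10 genes of Pi acquisition and its control in each Δpac-3 library, with high-Pi libraries (red) above low-Pi libraries (blue) on each row. Only pho-4 has its 3 high-Pi libraries above all low-Pi libraries, at 0.816 to 2.35 CPM against 0.242 to 0.443 CPM, and NCU03255 is high in high-Pi library I alone.

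The genes with the largest fold changes at an unadjusted p below 0.05 were chosen after their values were seen, among genes with a mean of at least 5 CPM whose libraries did not overlap, 8 in each direction. None was called, and all have an edgeR adjusted p between 0.87 and 0.93. Those higher in high-Pi were NCU02765, NCU00766, NCU06131, NCU04635, NCU07082, NCU07108, NCU08949 and NCU00332, for which the annotation used gives no name, with log2 fold changes from 1.46 to 2.18. These sizes rested in part on single libraries. Without high-Pi library I the log2 fold change was 1.23 for NCU02765, 1.42 for NCU00766, 0.95 for NCU04635, 0.74 for NCU08949 and 0.92 for NCU00332, and it was 0.84 for NCU07108 without high-Pi library II. NCU00766, NCU08949 and NCU00332 were also among the genes that separated library I, as defined further on. NCU06131 and NCU07082 were among those that separated high-Pi library III, in which they were lower. Their smallest log2 fold changes without 1 library were 1.55 and 1.18. NCU02765 had 162, 53.8 and 30.3 CPM in high-Pi libraries I to III, against 15.9, 17.4 and 20.96 CPM in the low-Pi libraries, NCU00766 had 25.1, 9.80 and 7.34 CPM in high-Pi libraries I to III, against 3.23, 2.89 and 3.51 CPM in the low-Pi libraries, and NCU06131 had 12.4, 12.04 and 5.79 CPM in high-Pi libraries I to III, against 3.24, 2.94 and 3 CPM in the low-Pi libraries. In these 3 genes the low-Pi libraries were close together and the high-Pi libraries spread, with library III the lowest. In Δmus-52 all 8 ran the other way, with log2 fold changes from -2.24 to -1.08. The difference between the strains had an edgeR adjusted p from 7.1e-04 to 0.009 for the 8 genes. That test used the same Δpac-3 libraries on which the genes were chosen, so its p-values are not independent of that choice.

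The 8 genes lower in high-Pi had smaller differences, with log2 fold changes from -0.62 to -0.53. They included 2 genes of nitrate use. The nitrate reductase gene nit-3 (NCU05298) had 665, 975 and 1126 CPM in high-Pi libraries I to III, against 1309, 1336 and 1425 CPM in the low-Pi libraries, and the nitrate transporter gene nit-10 (NCU07205) had 671, 1165 and 1244 CPM in high-Pi libraries I to III, against 1441, 1621 and 1509 CPM in the low-Pi libraries. In both, high-Pi library I was the lowest and all 3 high-Pi libraries lay below the low-Pi libraries, with log2 fold changes of -0.55 ± 0.20 and -0.56 ± 0.23 (SE). Another gene of the pathway, the nitrite reductase gene nit-6 (NCU04720), had 591, 712 and 557 CPM in high-Pi libraries I to III, against 881, 813 and 818 CPM in the low-Pi libraries and a log2 fold change of -0.43 ± 0.14 (SE; edgeR adjusted p = 0.93). For nit-6 the Pi responses of the strains differed by -0.81 on the log2 scale (edgeR adjusted p = 0.014). For nit-3 and nit-10 this difference was -0.72 and -0.46 and did not pass (edgeR adjusted p = 0.059 and 0.30). The other 6 were NCU06328, NCU07338, NCU07536, NCU00777, NCU02314 and NCU03873, without names in the annotation.

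Among the 21 genes with a DESeq2 adjusted p below 0.05, several had tight libraries and small changes. The kinase gene stk-39 (NCU06230) had 80.1, 84.3 and 83.6 CPM in high-Pi libraries I to III, against 50.8, 51.1 and 53.3 CPM in the low-Pi libraries. The gene of the osmosensing MAP kinase, os-2 (NCU07024), had 191, 173 and 188 CPM in high-Pi libraries I to III, against 123, 132 and 121 CPM in the low-Pi libraries. The blue-light photoreceptor gene wc-1 (NCU02356) had 124, 114 and 136 CPM in high-Pi libraries I to III, against 89.9, 76.6 and 75.7 CPM in the low-Pi libraries. All 3 were higher in each high-Pi library than in any low-Pi library, with log2 fold changes of 0.68 ± 0.10, 0.56 ± 0.11 and 0.63 ± 0.12 (SE) and edgeR adjusted p of 0.87, 0.91 and 0.91. The genes prk-3 (NCU03659) and thr-4 (NCU04277), a gene of threonine synthesis, had log2 fold changes of 0.76 ± 0.16 and 0.88 ± 0.16 (SE). In Δmus-52, 17 of the 21 genes had a negative fold change, as did 3828 of the 7725 tested genes with a mean of at least 1 CPM. The difference between the strains had an edgeR adjusted p below 0.05 for 17 of the 21, where 10.5% of all genes passed. That test used the Δpac-3 libraries on which the 21 genes were chosen, so this count is not independent of that choice.

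The 31 genes found without high-Pi library III were chosen by leaving that library out, so its place among their values follows in part from the choice and is given as a description. In 25 of them library III lay within or below the range of the low-Pi libraries while libraries I and II lay higher. The largest was NCU04276, with 308, 1771 and 12.7 CPM in high-Pi libraries I to III, against 19.6, 27.99 and 26.8 CPM in the low-Pi libraries. NCU07352 had 10.9, 31.2 and 0.230 CPM in high-Pi libraries I to III, against 0.558, 0.890 and 0.511 CPM in the low-Pi libraries, and the glycerol dehydrogenase gene gcy-1 (NCU04923) had 191, 107 and 32.5 CPM in high-Pi libraries I to III, against 33.8, 21.9 and 18.7 CPM in the low-Pi libraries. In the first pair high-Pi library II was the highest, in gcy-1 library I. The gene cut-1 (NCU04924) had 206, 200.3 and 55.6 CPM in high-Pi libraries I to III, against 64.6, 47.7 and 50.8 CPM in the low-Pi libraries, and nde-1 (NCU05225), an external NADH dehydrogenase gene, had 71.8, 86.96 and 32.6 CPM in high-Pi libraries I to III, against 30.2, 40.2 and 35.1 CPM in the low-Pi libraries. Of the 8 listed enzymes of the glyoxylate cycle, gluconeogenesis and fermentation, adh-1, cfp and acu-6 had library II highest and library I next, and were picked after their values were seen. The alcohol dehydrogenase gene adh-1 (NCU01754) had 32.9, 65 and 13.9 CPM in high-Pi libraries I to III, against 12.9, 14.02 and 10.97 CPM in the low-Pi libraries, the pyruvate decarboxylase gene cfp (NCU02193) had 212, 351 and 108 CPM in high-Pi libraries I to III, against 91.3, 134 and 121 CPM in the low-Pi libraries, and the phosphoenolpyruvate carboxykinase gene acu-6 (NCU09873) had 246, 589 and 67.7 CPM in high-Pi libraries I to III, against 76.2, 152 and 138 CPM in the low-Pi libraries. Other members were near level, such as acu-5 and acu-8, genes of acetyl-CoA metabolism, with log2 fold changes of 0.06 ± 0.12 and 0.01 ± 0.16 (SE). In this list 0 of 8 were called, 3 of 8 (adh-1, cfp and acu-3) had an unadjusted p below 0.05, all higher in high-Pi, and the median log2 fold change was 0.49. Over all genes tested, 3.53% were higher at an unadjusted edgeR p below 0.05, and the median was 0.0048.

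The Pi response of the control strain gave a set of 295 genes to look up in Δpac-3. Of the 285 genes called lower in high-Pi in Δmus-52, 270 were tested in Δpac-3. There, 199 had a positive and 71 a negative log2 fold change, 29 had an unadjusted p below 0.05 with a positive sign and 0 with a negative sign. Over all genes tested in Δpac-3, 3.53% were higher and 1.41% lower at an unadjusted p below 0.05. The median log2 fold change of all genes tested in Δpac-3 was 0.0048. For the genes called lower in Δmus-52 it was 0.22 in Δpac-3 and -1.92 in Δmus-52. The quartiles of their Δpac-3 values were -0.019 and 0.46. The median without high-Pi library I was 0.49 (256 of 277 positive), and it was 0.06 without low-Pi library I (158 of 274 positive), 0.02 without high-Pi library II (147 of 271) and 0.04 without high-Pi library III (149 of 271). With both libraries I left out, which was chosen after the data were seen, it was 0.33 (234 of 273 positive). Of the 10 genes called higher in Δmus-52, all 10 were tested in Δpac-3 and 7 had a positive sign, with a median of 0.28 in Δpac-3 and 1.67 in Δmus-52.

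The difference between the strains was tested in a fit of all 12 libraries. It passed an edgeR adjusted p below 0.05 for 886 of 8465 genes (10.5%), 637 with a positive (7.53%) and 249 with a negative difference (2.94%), where a positive value means that high-Pi over low-Pi was larger in Δpac-3. In 567 of the 886 genes the fold change was positive in Δpac-3 and negative in Δmus-52, and in 241 the reverse. Of the 886 genes, 812 had an edgeR adjusted p below 0.05 in Δmus-52 itself. In Δpac-3, 191 had an unadjusted edgeR p below 0.05 and none passed adjustment, so for most the Δpac-3 sign is not established. The difference passed for 209 of the 285 genes called lower and 4 of the 10 called higher in Δmus-52, which were chosen on 6 of the same libraries, so that these counts are not independent of that choice. Leaving out high-Pi library I of Δpac-3 gave 1585 genes, and leaving out high-Pi library II of Δmus-52 gave 392. The culture age of the conidia and the state of mus-52 differed together with the strain, and their parts in the difference cannot be told apart from that of pac-3.

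**Figure D3:**
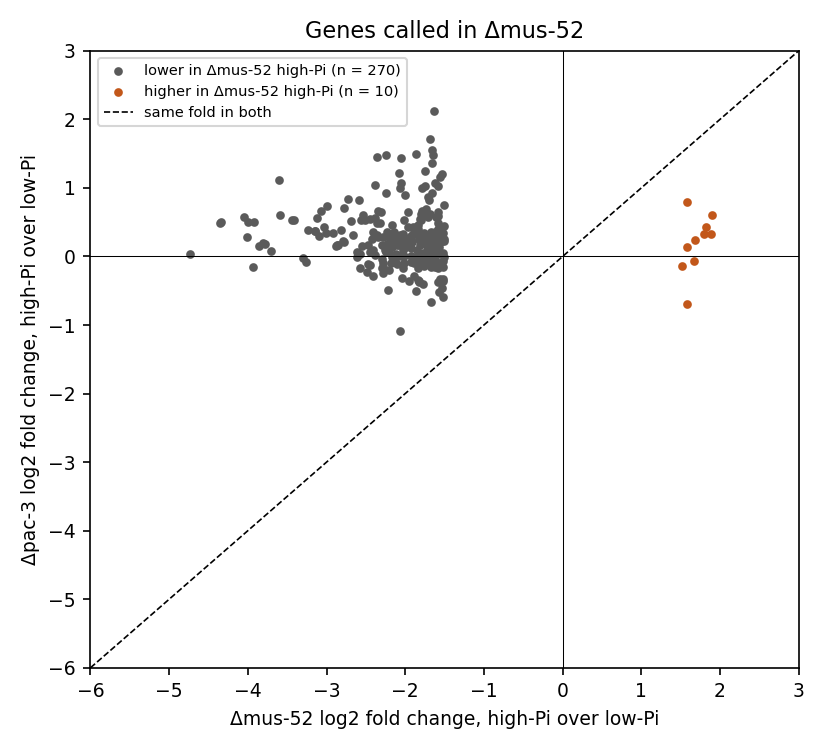
Log2 fold change of high-Pi over low-Pi in Δpac-3 (vertical axis) against that in Δmus-52 (horizontal axis) for the 280 genes called in Δmus-52 and tested in both strains. The 270 genes called lower in Δmus-52 lie between -1.08 and 2.13 in Δpac-3, with a median of 0.22.

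Among the 8 genes of this set with the smallest p of the difference, NCU09365 had 6.72, 8.73 and 8.03 CPM in high-Pi libraries I to III, against 7.13, 7.03 and 5.42 CPM in the low-Pi libraries of Δpac-3, and 6.02, 6.02 and 5.35 CPM in high-Pi and 24.8, 25.98 and 25.4 CPM in low-Pi in Δmus-52. The gene prk-3 had 28.9, 32.3 and 28.7 CPM in high-Pi libraries I to III, against 14.4, 18.4 and 20.6 CPM in the low-Pi libraries of Δpac-3, and 12.3, 12.7 and 14.4 CPM in high-Pi and 33.6, 39.9 and 35.04 CPM in low-Pi in Δmus-52. In both genes the 3 low-Pi libraries of Δmus-52 stood highest of all 12, and the difference was 2.42 and 2.24 on the log2 scale (edgeR adjusted p = 2.9e-04 and 2.9e-04). The other 6, NCU04667, NCU00322, NCU00250, NCU02203, NCU06131 and NCU04415, had differences from 2.22 to 3.77.

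Of the genes of the set that carry a symbol, ccg-1, gh61-5, clr-2 and al-1 are given with their values. The glucose-repressible, clock-controlled gene ccg-1 (NCU03753) had 111, 54.1 and 63.3 CPM in high-Pi libraries I to III, against 24.3, 39.1 and 44.99 CPM in the low-Pi libraries of Δpac-3, and 47.9, 49.8 and 38.7 CPM in high-Pi and 187, 162 and 202 CPM in low-Pi in Δmus-52. The groups did not overlap in either strain and ran in opposite directions, with log2 fold changes of 1.08 ± 0.32 (SE; edgeR adjusted p = 0.93) in Δpac-3 and -2.06 ± 0.12 (SE; edgeR adjusted p = 1.1e-05) in Δmus-52. The polysaccharide monooxygenase gene gh61-5 (NCU08760) had 4.11, 12.2 and 14.9 CPM in high-Pi libraries I to III, against 6.79, 8.94 and 8.35 CPM in the low-Pi libraries of Δpac-3, and 15.2, 19.6 and 30.6 CPM in high-Pi and 126, 167 and 153 CPM in low-Pi in Δmus-52. For clr-2 (NCU08042), the transcription factor gene of the cellulose response, the values were 2.25, 7.38 and 8.75 CPM in high-Pi libraries I to III, against 2.76, 5.25 and 4.94 CPM in the low-Pi libraries of Δpac-3, and 2.23, 4.17 and 4.40 CPM in high-Pi and 18.6, 21.6 and 20.5 CPM in low-Pi in Δmus-52. The Δpac-3 groups overlapped for both genes while the Δmus-52 groups did not, and the difference was 3.18 for gh61-5 and 3.06 for clr-2 (edgeR adjusted p = 0.0043 and 0.0088). The phytoene dehydrogenase gene al-1 (NCU00552) of carotenoid synthesis was 1 of the 10 genes higher in Δmus-52 high-Pi. It had 488, 265 and 328 CPM in high-Pi libraries I to III, against 317, 266 and 283 CPM in the low-Pi libraries of Δpac-3, and 959.5, 679 and 904 CPM in high-Pi and 350.1, 144 and 218 CPM in low-Pi in Δmus-52, with a difference of -1.49 (edgeR adjusted p = 0.036), which was lost in 10 of the 12 fits without 1 library.

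The Δpac-3 high-Pi libraries differed from each other more than those of any other group. Within a group, the same coefficient was 0.257 in Δpac-3 high-Pi and 0.132 in Δpac-3 low-Pi, and 0.132 in Δmus-52 high-Pi and 0.106 in Δmus-52 low-Pi. Across the 7775 genes with a mean of at least 1 CPM, correlations of log2 CPM (across genes, which are not replicates) were 0.960 to 0.976 among the high-Pi libraries of Δpac-3 and 0.989 to 0.996 among the low-Pi libraries. High-Pi library III correlated at 0.983 to 0.989 with each low-Pi library and at 0.960 and 0.976 with its own mates. The same held for high-Pi library II, at 0.980 to 0.985 with the low-Pi libraries and 0.971 and 0.976 with its mates. On the first principal component, with 49.6% of the variance, library I lay at -38.0 and the other 5 libraries between -2.17 and 18.1.

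**Figure D4:**
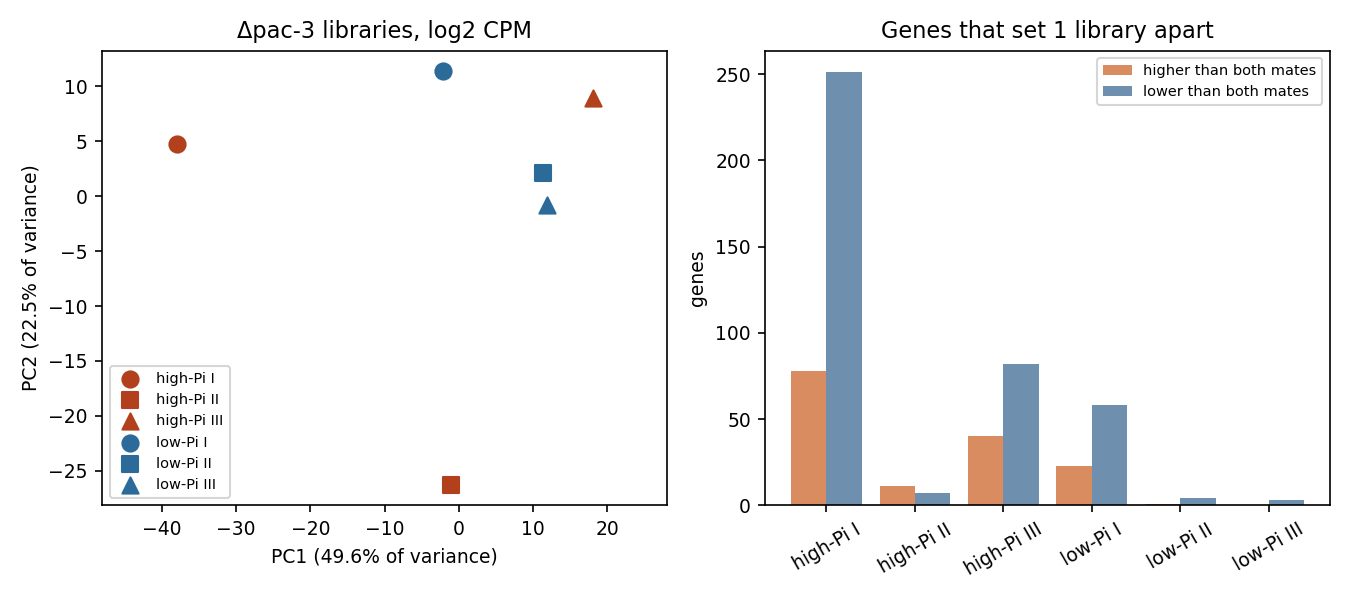
Left, first and second principal components of log2 CPM (7775 genes) of the 6 Δpac-3 libraries, high-Pi in red and low-Pi in blue. Right, number of genes in which 1 library was higher or lower than both mates of its group by at least 1 on the log2 scale, with the mates no more than 0.5 of that gap apart. High-Pi library I stands alone at -38.0 on the first component and has the most genes, 78 higher and 251 lower.

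A gene was said to separate a library when that library was higher or lower than both of its group mates by a gap of at least 1 in log2 CPM and the mates differed by no more than 0.5 of that gap. With 1 library against 2 there is no test. High-Pi library I was separated by 329 of the 7775 genes, 78 higher (1%) and 251 lower (3.23%). High-Pi library III was separated by 122 genes (40 higher and 82 lower), low-Pi library I by 81 (23 higher and 58 lower), high-Pi library II by 18 (11 higher and 7 lower), and low-Pi libraries II and III by 5 and 3. In library I, all 78 higher genes were above all 3 low-Pi libraries and 246 of the 251 lower genes were below all 3. Low-Pi library I leaned the same way. It was below both of its mates for 215 of the 251 genes (85.7%; 37.3% over all 7775 genes) and above both for 53 of the 78 (67.9%; 43.5% over all). Library I of each Pi condition carries the same replicate number in the labels, which do not say what a number shares.

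The widest gaps above libraries II and III were at genes without a name in the annotation. NCU06912 had 108, 6.61 and 2.96 CPM in high-Pi libraries I to III, against 14.2, 3.52 and 3.92 CPM in the low-Pi libraries, and NCU00265 had 382, 20.9 and 30.3 CPM in high-Pi libraries I to III, against 62.7, 16.02 and 15.3 CPM in the low-Pi libraries. In both, low-Pi library I was also above its mates. The oligopeptide transporter gene NCU09773 had 129.7, 26.9 and 13.8 CPM in high-Pi libraries I to III, against 38.9, 30.3 and 27.4 CPM in the low-Pi libraries, and the dyp-type peroxidase gene NCU09210 had 277, 44.9 and 65.9 CPM in high-Pi libraries I to III, against 70.3, 43.6 and 47.4 CPM in the low-Pi libraries. Its neighbour in the numbering, the galactose oxidase gene NCU09209, had 112, 17.6 and 31.04 CPM in high-Pi libraries I to III, against 27.3, 18.2 and 18.9 CPM in the low-Pi libraries, so library I was the highest of the 6 at both genes. The other 3 of the 8 named genes, NCU02596, NCU02124 (a dienelactone hydrolase gene) and mig-4 (NCU09040), stood at 16.6, 44.4 and 50.6 CPM in library I, against 4.18 and 4.13, 10.9 and 11.7, and 14.7 and 11.6 CPM in libraries II and III.

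Further genes higher in library I that carry a symbol were glutathione S-transferase gst-1 (NCU05780), with 94.4, 35.5 and 22.1 CPM in high-Pi libraries I to III, against 43.99, 32.8 and 27.2 CPM in the low-Pi libraries, and the polyketide synthase gene pks-3 (NCU04865), with 96.5, 39.8 and 34.5 CPM in high-Pi libraries I to III, against 64.3, 66.4 and 62.5 CPM in the low-Pi libraries. The methionine pathway gene met-8 (NCU06512) had 5889, 2288 and 1678 CPM in high-Pi libraries I to III, against 2687, 1654 and 1437 CPM in the low-Pi libraries. Glycogen synthase gsy-1 (NCU06687) had 201, 89.2 and 99.3 CPM in high-Pi libraries I to III, against 104, 91.03 and 90.4 CPM in the low-Pi libraries, and NCU05429 of the same glycogen and trehalose list had 340, 158 and 168 CPM in high-Pi libraries I to III, against 179, 169 and 179.6 CPM in the low-Pi libraries. In each of these 5 genes library I was the highest of the 6 libraries. The other symbols were Prm1, npd-2, acd-1 and tah-2, and the phytase gene NCU03255 described above also belonged here.

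Genes of mating were among those lower in library I. The pheromone precursor gene mfa-1 (NCU16992) had 512, 4888 and 8029 CPM in high-Pi libraries I to III, against 3993, 5095 and 5794 CPM in the low-Pi libraries, so it was 511.6 CPM in library I and at least 3993 CPM in every other Δpac-3 library. The pheromone receptor gene pre-2 (NCU05758) had 2.12, 14.8 and 15 CPM in high-Pi libraries I to III, against 11.3, 12.8 and 12.8 CPM in the low-Pi libraries, and asd-3 (NCU05597), a gene of ascus development, had 2.09, 6.19 and 4.36 CPM in high-Pi libraries I to III, against 5.47, 3.16 and 3.54 CPM in the low-Pi libraries. Of the 10 genes on the list of sexual markers 7 were tested, 0 were called, and 3 were lower in library I. Over all 7775 genes, 3.23% were lower in library I. The other tested members of the list, pre-1, poi-2, asd-1 and fmf-1, did not separate it. The summed level of the list was 536 to 8069 CPM in high-Pi and 4031 to 5828 CPM in low-Pi, and 23.9 to 40.3 CPM and 33.8 to 38.5 CPM without mfa-1.

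Of the conidial markers, eas and con-10 were lower in library I than in its mates in both Pi conditions. The hydrophobin gene eas (NCU08457), whose product forms the water-repellent rodlet layer of conidia, had 25.9, 88.8 and 134 CPM in high-Pi libraries I to III, against 81.5, 386 and 399 CPM in the low-Pi libraries, with a log2 fold change of -1.80 ± 0.70 (SE; edgeR adjusted p = 0.93). High-Pi libraries II and III were below low-Pi libraries II and III, while low-Pi library I lay among the high-Pi libraries. The conidiation gene con-10 (NCU07325) had 3.52, 12.7 and 22.8 CPM in high-Pi libraries I to III, against 8.21, 39.8 and 39.3 CPM in the low-Pi libraries, and con-6 (NCU08769) had 5.45, 3.74 and 19.6 CPM in high-Pi libraries I to III, against 9.08, 20.1 and 20.2 CPM in the low-Pi libraries. In con-10 high-Pi libraries II and III again lay below low-Pi libraries II and III, while in con-6 high-Pi library III was level with them. The summed level of the 14 conidial and conidiation markers was 465, 521 and 817 CPM in high-Pi libraries I, II and III, against 522.5, 803 and 812 CPM in low-Pi libraries. At an unadjusted edgeR p below 0.05, 3.53% of all genes tested were higher and 1.41% lower in high-Pi. By the rule for separation, 3.23% of the 7775 genes were lower in high-Pi library I. Of the 14, 0 were called, 2 had an unadjusted p below 0.05 higher and 1 lower, and 2 (eas and con-10) were lower in high-Pi library I by that rule. Other members did not share this order, since ccg-1 was highest in high-Pi library I, and fl and csp-1 were highest among the low-Pi libraries in library I. The part of conidial or sexual cells in these values was not tested, and in bulk RNA fewer cells of a type and less RNA per cell cannot be told apart.

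The 8 genes lowest in library I were NCU09964, NCU01298, NCU09613, mfa-1, NCU05822, NCU10276, NCU07201 and NCU03121. NCU09964 had 1.21, 23.2 and 22.6 CPM in high-Pi libraries I to III, against 8.28, 11.9 and 13.7 CPM in the low-Pi libraries, NCU01298 had 6.82, 115 and 158 CPM in high-Pi libraries I to III, against 116, 82.3 and 84.2 CPM in the low-Pi libraries, and NCU10276 had 28.6, 374 and 258 CPM in high-Pi libraries I to III, against 406, 301 and 306 CPM in the low-Pi libraries. In NCU10276 and NCU01298 low-Pi library I was the highest of its group, so the low value was that of high-Pi library I alone. NCU01298, NCU05822 and NCU03121 overlap other annotated genes, and their counts could include reads of these. The same holds for NCU02124, NCU01065, adh-1, con-6, nde-1, NCU00250, NCU07142 and NCU00777, named in other paragraphs. Of the 302 genes looked up by rule or list, 52 overlap an annotated gene.

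Pairs of transporter and oxidative enzyme genes lower in library I were picked after their values were seen, and genes of both kinds were also among those higher in it. The ammonium transporter gene NCU01065 had 21.5, 100.5 and 102 CPM in high-Pi libraries I to III, against 118, 97.9 and 92.6 CPM in the low-Pi libraries, and the amino acid permease gene NCU07129 had 167, 395 and 423 CPM in high-Pi libraries I to III, against 446, 391 and 395 CPM in the low-Pi libraries. The laccase gene lacc (NCU04528) had 61.6, 442 and 248 CPM in high-Pi libraries I to III, against 111, 302 and 301 CPM in the low-Pi libraries, and the catalase gene cat-2 (NCU05770) had 20.7, 56.4 and 56.05 CPM in high-Pi libraries I to III, against 42.5, 61.8 and 62.6 CPM in the low-Pi libraries. For the last pair low-Pi library I was lower than its mates too, for the transporters it was not. In the lists that hold these genes, 1 of 9 catalases, superoxide dismutases and NADPH oxidases and 1 of 11 nitrogen genes were lower in library I, and of the 2 amino acid and oligopeptide permeases 1 was higher and 1 lower. Among the 30 genes of plant cell wall degradation, of which 24 were tested and 0 called, 4 were lower in library I (gh61-5, gh61-11, gh7-1 and clr-2), and gh1-1 and gh13-2 outside that list were lower as well. These counts stand beside 3.23% lower and 1% higher in library I over the 7775 genes. Of the genes lower in library I that carry a symbol, rad16 (NCU03650), mus-40 (NCU07498), mus-53 (NCU06264) and parp (NCU08852) are repair genes. They were picked after their values were seen, and no list of repair genes was counted. Among them, parp had 30.9, 223 and 247 CPM in high-Pi libraries I to III, against 100.5, 226 and 236 CPM in the low-Pi libraries.

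**Figure D5:**
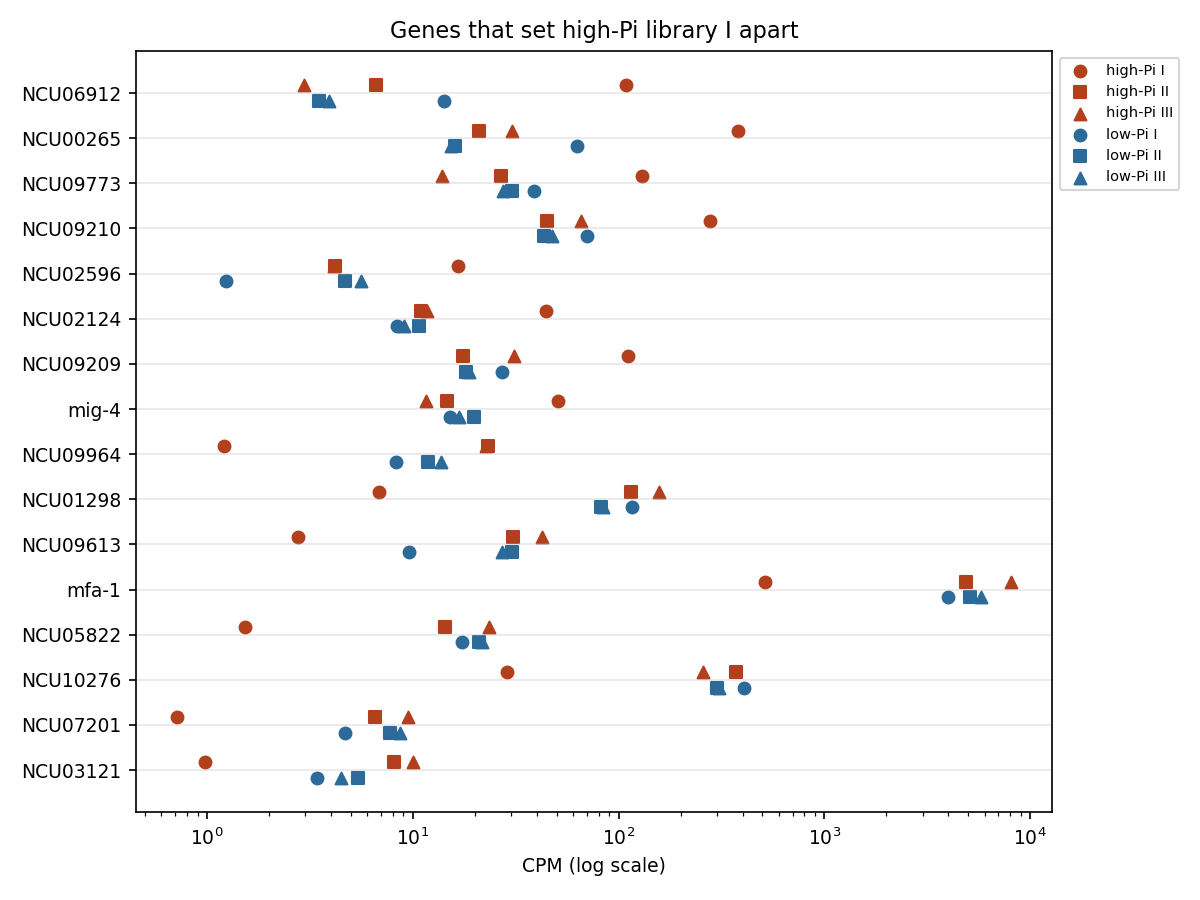
CPM (horizontal axis, log scale) of the 8 genes highest and the 8 genes lowest in Δpac-3 high-Pi library I by the gap to the nearest of libraries II and III, with high-Pi libraries (red) above low-Pi libraries (blue) on each row. The red circle of library I lies at the right end for the first 8 genes, such as 108.2 CPM for NCU06912, and at the left end for the last 8, such as 1.21 CPM for NCU09964.

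The genes lower in library I overlapped the genes of the Pi response of the control strain, which was measured in other libraries. Of the 251 genes, 110 (43.8%) were called lower in high-Pi in Δmus-52, and these were 38.6% of the 285 genes so called. Genes called lower in Δmus-52 made up 3.05% of all 7775 genes. Of the 78 genes higher in library I, 4 (5.13%) were called lower in Δmus-52 and 0 were called higher. In the Δmus-52 libraries the median log2 fold change was -1.42 for the 240 tested genes lower in library I (230 negative), 0.03 for the 74 tested genes higher in library I and 0.0041 for all 7725 tested. Among the shared genes, pre-2 had 1.13, 0.502 and 1.41 CPM in high-Pi and 5.36, 4.58 and 4.06 CPM in low-Pi in Δmus-52, lacc had 4.90, 10.2 and 27.7 CPM in high-Pi and 123, 211 and 209 CPM in low-Pi, and parp had 13.3, 20.1 and 78.4 CPM in high-Pi and 161, 149.5 and 228 CPM in low-Pi. In all 3 the high-Pi libraries of Δmus-52 were below the low-Pi libraries. The gene mfa-1 was not shared, with 2601, 1446 and 556 CPM in high-Pi and 2696, 1560 and 843 CPM in low-Pi in Δmus-52 and overlapping libraries.

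From the 122 genes that separated high-Pi library III, some with a symbol are given here, picked after their values were seen. Of the 3 listed sugar transporters only hgt-1 was among the 122. The high-affinity glucose transporter gene hgt-1 (NCU10021) had 129.7, 238 and 914 CPM in high-Pi libraries I to III, against 212, 411 and 389 CPM in the low-Pi libraries, the developmental regulator gene fl (NCU08726) had 22.4, 25.5 and 72.97 CPM in high-Pi libraries I to III, against 50.3, 26.5 and 23.2 CPM in the low-Pi libraries, and csp-1 (NCU02713), a regulator gene of conidial separation, had 71.4, 67.99 and 216 CPM in high-Pi libraries I to III, against 117, 51.97 and 49.5 CPM in the low-Pi libraries. In these 3 library III was the highest of the 6. The ATPase gene ena-1 (NCU05046) had 15.9, 14.1 and 40.6 CPM in high-Pi libraries I to III, against 13.3, 15.8 and 12.9 CPM in the low-Pi libraries, and the xylanase regulator gene xlr-1 (NCU06971) had 6.33, 9.09 and 21.5 CPM in high-Pi libraries I to III, against 7.64, 14.4 and 15.7 CPM in the low-Pi libraries. On the low side were the thiamine synthesis gene nmt-1 (NCU09345), with 858, 1031 and 287 CPM in high-Pi libraries I to III, against 638, 409.8 and 433 CPM in the low-Pi libraries, and the protein kinase A gene pkac-2 (NCU00682), with 124, 158 and 52.9 CPM in high-Pi libraries I to III, against 69.2, 75.1 and 72.9 CPM in the low-Pi libraries. In both, library III was below all low-Pi libraries and libraries I and II were above them.

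The remaining lists held no called gene. Over the other 17 lists 173 genes were tested, 9 had an unadjusted p below 0.05 and were higher in high-Pi, and 3 were lower (eas, nit-3 and nit-6). These counts stand beside 3.53% higher and 1.41% lower over all genes tested. Of the 11 genes of nitrogen regulation and assimilation, 2 had an unadjusted p below 0.05, both lower, and the median log2 fold change was -0.16. The 7 ribosomal protein genes had a median of -0.17 and values from -0.24 to 0.16, and the 11 heat shock and chaperone genes ran from -0.20 to 0.29. In the 28 genes of the fungal cell wall 2 had an unadjusted p below 0.05, both higher, and the non-anchored wall protein gene ncw-6 (NCU00586) had 9.07, 6.87 and 5.94 CPM in high-Pi libraries I to III, against 4.47, 5.38 and 5.11 CPM in the low-Pi libraries. Its Pi response differed between the strains by 1.99 on the log2 scale (edgeR adjusted p = 0.0029), as did that of 5 other genes of the 28 at an adjusted p below 0.05, where 10.5% of all genes passed. The 9 genes of P-type and potassium transport and the 6 of sulphur assimilation had 0 genes at an unadjusted p below 0.05 in edgeR, with medians of 0.04 and 0.08.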

How the data were processed

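Total RNA was measured by RNA-seq in 12 libraries. The authors checked reads with FastQC 0.11.7, trimmed them by base quality and mapped them to the NC12 genome with Bowtie2 2.3.4. They deposited raw read counts for every gene in each library. Which tool counted reads, and whether it used strand, is not given in the sources used here. The authors also deposited tables of the strain comparison in each Pi condition (means, fold changes and p-values), which were not used.

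Counts were analysed with edgeR 4.0.16 in R 4.3.3 (filterByExpr, minimum count 10 and total 15, TMM factors, quasi-likelihood F test, Benjamini-Hochberg adjustment, prior count of 0.125). A call needed an adjusted p below 0.05 together with a log2 fold change of 1.5 or more in either direction. The SE is the fold change divided by the square root of F. High-Pi was compared with low-Pi in the 6 libraries of a strain, and the 2 responses in a fit of all 12. Separation of libraries used log2 CPM with a prior count of 2. DESeq2 1.42.0 and limma 3.58.1 were alternatives, as were other scalings, filters and thresholds, a replicate block and leaving out each library. Procedures were tested on simulated data, and figures drawn with matplotlib 3.10.9.

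The deposited totals differ up to several fold between libraries, and genes of few counts have the least precision. No 2 of the 6 Δpac-3 libraries agreed within sampling noise (chi-square per degree of freedom of at least 10.8). Gene lists and members were chosen with earlier results of these data known. The rule named the deleted and reference genes, all Pi genes, and the 8 genes highest and lowest in high-Pi library I. Its parts for called genes named none, so genes at an unadjusted p below 0.05, those called in Δmus-52, and others named beside them were chosen after their values were seen. Symbols came from the NC12 annotation, in which 9729 of 9730 gene IDs were found, and some products from the study's text. Of the list entries, 15 matched no gene. Promoter motifs and sequences were not analysed here, and no coordinates are given.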

Additional observations from a re-analysis of the deposited data

Results flagged for a closer look

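The Pi responses of the strains differed, by the test of the difference in the fit of 12 libraries at an edgeR adjusted p below 0.05, for the 35 genes below. Each value is the Δpac-3 log2 fold change minus the Δmus-52 log2 fold change. For genes chosen by their values in either strain, the test used the same libraries and is not independent of that choice. Among the genes with the smallest p, it was 2.42 for NCU09365, 2.24 for prk-3, 2.93 for NCU04667, 2.40 for NCU00322, 3.77 for NCU00250, 2.22 for NCU02203, 3.38 for NCU06131 and 2.98 for NCU04415. Of the genes with a symbol, it was 3.12 for ccg-1, 1.96 for the kinase gene stk-26, 3.77 for lacc, 2.96 for ci-1, 2.35 for the conidiation gene con-13, 3.06 for clr-2, 3.18 for gh61-5, 2.78 for pho-4 and -1.49 for al-1. Of the genes with the largest fold changes in Δpac-3, it was 3.24 for NCU02765, 3.74 for NCU00766, 3.20 for NCU04635, 3.11 for NCU07082, 3.69 for NCU07108, 2.81 for NCU08949, 2.65 for NCU00332 and -0.78 for NCU03873. Of the other genes named, it was 4.81 for NCU09964, 3.99 for NCU09613, -0.81 for nit-6, 1.99 for ncw-6, 0.91 for wc-1, 0.70 for stk-39, 0.60 for os-2, 3.10 for NCU07142, 2.96 for NCU09176 and 2.24 for gcy-1. The adjusted p was at or over 0.05 in 10 of the 12 fits without 1 library for al-1, NCU09613 and gcy-1, in 8 of 12 for lacc, con-13, NCU03873, NCU09964 and os-2, and in 4 of 12 for stk-39. For the other 26 genes it was under 0.05 in all 12.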

How the results depend on the processing

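The count of 0 for the Pi response in Δpac-3 held under RLE scaling, total counts, no filter, a minimum count of 50, thresholds of 1 on the log2 scale or 0.01 on the adjusted p, a test against the fold threshold, a prior count of 2, limma-voom, the fit of 12 libraries and, added after the data were seen, without a replicate number in both conditions. It was 5 with DESeq2 and ran from 0 to 17 without 1 library, 17 being without high-Pi III. Replicate numbers did not pair the Δpac-3 samples throughout. Same-numbered libraries had correlations of deviations of 0.41, 0.07 and 0.13 for I, II and III. The best correlation with a library of another number was -0.26, 0.31 and 0.23, so only libraries I were closest to each other. A fit with the replicate block called 1 gene, eas, lower in high-Pi (edgeR adjusted p = 0.035). For the Pi response in Δmus-52 (correlations of 0.37, 0.21 and 0.20) the block gave 306 calls against 295, DESeq2 288, and leaving out 1 library 262 to 341. The difference of the Pi response between the strains passed for 886 genes, 1346 with DESeq2, 1117 with the replicate block, 392 to 1585 without 1 library, and 350 without libraries II, 658 without III and 1173 without I of Δpac-3 in both conditions. Counts were also lower without a Δpac-3 low-Pi library (490, 579 and 560 for I, II and III), a Δmus-52 low-Pi library (592, 451 and 450) or Δmus-52 high-Pi I or II (514 and 392). The log2 fold change in Δpac-3, NCU03255, ran from -0.12 (without high-Pi library I) to 1.13 without 1 library, and was -0.0285 without both libraries I. The 329 genes separating library I became 131 at a gap of 1.5 on the log2 scale and 222 to 332 under the other alternatives. Depth limits genes of few counts, such as pho-4.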
